A study of Stylosanthes guianensis with 6 samples.

Results

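Heat shock proteins and late embryogenesis abundant (LEA) proteins protect other proteins during stress. The 6 unigenes described here encode a heat shock factor (HSF30-like), heat shock protein 83 (HSP83), heat shock 70 kDa protein 4 (HSP70-4), an hsp20/alpha crystallin protein (hsp20), a group 6 LEA protein and a second LEA protein with a harpin-induced domain. A unigene is the assembled counterpart of a gene. The 6 were taken by their IDs from the study's lists of differentially expressed genes (DEGs), that is, from the same contrast as analysed below. They are 6 of 102864 unigenes listed in the data and of 51569 above 0 in at least 1 library. Their changes under Mn toxicity are therefore a description and were not tested as such.

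RNA was sequenced from leaves of stylo (Stylosanthes guianensis, genotype TF303 in the study's methods), a tropical forage legume. Seedlings grown for 30 d in nutrient solution were moved to 400 μM MnSO4 (Mn toxicity) or to 5 μM MnSO4 (control) and kept there for 10 d. There were 3 libraries per treatment, each called a biological replicate, and the methods count a hydroponic box of several seedlings as 1 replicate. The sample labels give the same concentrations in mM, whereas the design text and the methods give μM.

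Heat shock factors are transcription factors that bind heat shock elements in promoters, and they switch on chaperone genes when unfolded proteins accumulate. HSP90 and HSP70 proteins are ATP-driven chaperones that fold or stabilize client proteins. Small heat shock proteins, which carry the alpha-crystallin domain, hold unfolding proteins without using ATP and pass them on to HSP70. LEA proteins are mostly hydrophilic proteins that accumulate in drying seeds and in leaves short of water. The LEA_2 branch, to which harpin-induced (HIN1/NHL) proteins belong, is less hydrophilic and often bound to membranes.

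The library totals recovered from the RPKM steps were 36.2 to 37.8 M reads (megareads) under Mn toxicity and 31.1 to 37.0 M reads in the control. The Mn toxicity libraries differed from each other more than the control libraries did. Median-of-ratios factors, by which RPKM were divided in an alternative scaling, were 0.968, 1.28 and 0.623 for Mn toxicity replicates 1, 2 and 3, against 1.06 to 1.11 in the control. Mn toxicity replicate 3 was the lowest of its group for 82.4% of the 30913 unigenes tested, and replicate 2 was the highest for 80.5%. The difference of each of the 6 unigenes is therefore also given on this scale, and with replicate 3 of the Mn toxicity group left out. The 4 chloroplast-encoded photosystem transcripts used as a leaf marker (CP43, CP47, D1 and P700 apoprotein A1) were above 0 in every library. Their summed level was 877, 66.5 and 1557 RPKM in Mn toxicity replicates 1, 2 and 3, and 53.8 to 101 RPKM in the control. Mn toxicity replicate 2 thus lay within the control range. Whether this difference between libraries takes part in the values below was not tested. In whole leaves, a change in the number of cells of a type and a change in RNA per cell cannot be told apart.

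A higher level under Mn toxicity was found for 5 of the 6 unigenes, and the groups of all 6 did not overlap. Of all 51569 unigenes above 0, 24.9% had groups that did not overlap, 7.09% with Mn toxicity higher and 17.8% with Mn toxicity lower. Among the unigenes tested this share was 32.0%, with 9.41% higher and 22.6% lower. The exception in direction was hsp20, which was lower in each Mn toxicity library than in any control library. By limma's moderated test on log2(RPKM + 0.5), with Benjamini-Hochberg adjustment and a log2 limit of 1 in size, HSF30-like and LEA group 6 were called higher, that is, 2 of the 5 unigenes with a mean of at least 0.5 RPKM. The same limits called 5.78% of all unigenes tested, 2.09% higher and 3.69% lower. After median-of-ratios scaling, HSP83 and the harpin-induced LEA were called as well, which made 4 of 5, beside 8.14% of all unigenes, 4.37% higher and 3.77% lower. The median log2 fold change of all unigenes tested was -0.20 on the deposited scale, but -0.00 once median-of-ratios scaling was applied.

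**Figure D1:**
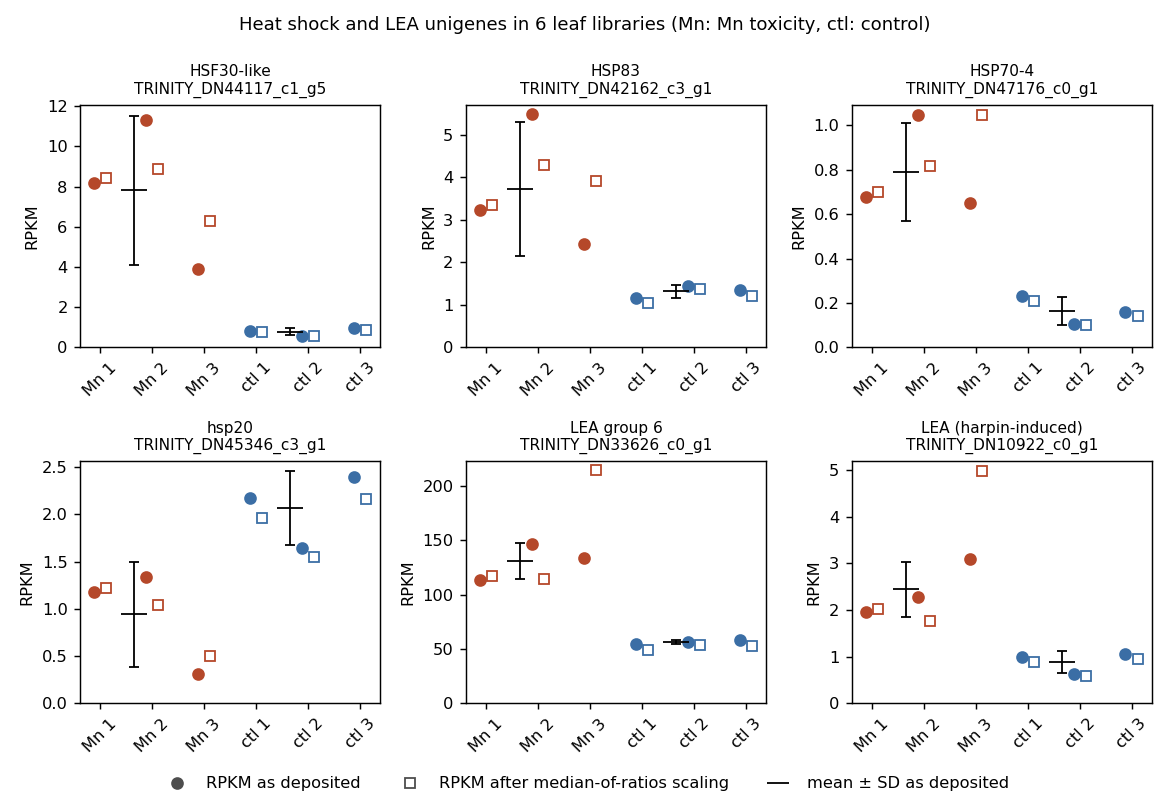
RPKM of the 6 unigenes in each library, 1 panel per unigene on a linear axis, with Mn toxicity replicates (Mn 1 to Mn 3, red) left of control replicates (ctl 1 to ctl 3, blue). Filled circles are the deposited RPKM, open squares the RPKM after median-of-ratios scaling, and black bars the mean ± SD of the deposited RPKM (n = 3 per group). Only hsp20 has its Mn toxicity libraries below the control libraries, and Mn 3 moves from the lowest to the highest position of its group for HSP70-4 when scaled.

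HSF30-like (TRINITY_DN44117_c1_g5) was the only transcription factor of the set and had the highest fold of the 6. Whether it acts on the other unigenes was not tested. It had 8.18, 11.3 and 3.91 RPKM in Mn toxicity replicates 1, 2 and 3, against 0.827, 0.579 and 0.944 RPKM in control replicates 1, 2 and 3. Even the lowest Mn toxicity library was thus well above the highest control library. HSF30 is the older tomato name of a class A2 heat shock factor, a factor that accumulates during lasting heat and keeps chaperone genes active. The means were 7.81 ± 3.72 RPKM under Mn toxicity and 0.784 ± 0.186 RPKM in the control (SD, n = 3 each), a fold of 9.96. These rested on 662, 878 and 316 reads under Mn toxicity and 64, 46 and 63 reads in the control. The ratio of the summed reads, corrected for library totals, was 10.0 (95% interval 8.57 to 11.8, counting error only). On the log2(RPKM + 0.5) scale, which understates the change of weakly expressed unigenes, the difference was 2.59 ± 0.38 (SE). After median-of-ratios scaling it was 2.77 ± 0.18, and with Mn toxicity replicate 3 left out it was 2.99.

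The rank of HSF30-like among all 51569 unigenes differed between the treatments. By mean RPKM it stood above 79.4% of them under Mn toxicity and above 46.3% in the control. Scaling brought the Mn toxicity libraries to 8.45, 8.86 and 6.28 RPKM, against 0.748, 0.547 and 0.853 RPKM in the control. The coefficient of variation of the Mn toxicity libraries was 47.7% as deposited and 17.6% after scaling. HSF30-like was called higher in 23 of 23 settings, which comprised other pseudocounts, minimum values, scalings and tests and the omission of each library. The same settings called 289 to 4977 of all unigenes tested. Here and below, these settings reuse the 6 libraries from which the study chose the unigenes, so such counts are a description.

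HSP83 (TRINITY_DN42162_c3_g1) belongs to the HSP90 family, HSP83 being the name first given to the fruit fly protein. Its level was 3.23, 5.49 and 2.44 RPKM in the Mn toxicity libraries and 1.16, 1.45 and 1.34 RPKM in the control libraries. All Mn toxicity libraries lay above all control libraries, with replicate 2 the highest. The means were 3.72 ± 1.58 RPKM under Mn toxicity and 1.32 ± 0.150 RPKM in the control, a fold of 2.82. The log2 difference of 1.15 ± 0.33 (SE) exceeded the limit of 1, but the adjusted p did not pass, so that HSP83 was not called. After median-of-ratios scaling the levels were 3.34, 4.29 and 3.92 RPKM under Mn toxicity and 1.05, 1.37 and 1.21 RPKM in the control, and the difference of 1.34 ± 0.16 was called. Without Mn toxicity replicate 3 it was 1.38 and called without any scaling, in a fit that called 2848 of all 30913 unigenes tested. Of 23 settings, 10 called HSP83 higher.

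HSP70-4 (TRINITY_DN47176_c0_g1) had the lowest level of the set. HSP70 proteins bind short hydrophobic stretches of newly made or unfolding proteins. Its level was 0.677, 1.05 and 0.652 RPKM in the Mn toxicity libraries and 0.231, 0.106 and 0.158 RPKM in the control libraries, from 52, 77 and 50 reads under Mn toxicity and 17, 8 and 10 reads in the control. The groups were apart, although each control library held fewer than 20 reads. The ratio of the summed reads was 4.78 (95% interval 3.31 to 7.08, counting error only). With a mean of 0.478 RPKM over the 6 libraries, it was under the minimum of 0.5 RPKM and was not tested. Without that minimum, where 2.47% of all unigenes were called, the log2 difference was 0.95 ± 0.27 (SE) and was not called. The pseudocount of 0.5 RPKM is larger than each control value, so the log2 difference is far smaller than the ratio of the reads. Scaled by median-of-ratios, also without the minimum, it was 1.05 and called. The share of all unigenes called in that fit is not given here. With the minimum, this scaling called 8.14% of all unigenes tested, against 5.78% as deposited. The omission of Mn toxicity replicate 3 gave 1.02, which was not called. These further fits without the minimum were added after the data were seen. Of 8 settings, 1 called HSP70-4 higher.

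The hsp20 unigene (TRINITY_DN45346_c3_g1), a small heat shock protein by its description, went the other way. It had 1.18, 1.34 and 0.311 RPKM in the Mn toxicity libraries, against 2.17, 1.64 and 2.40 RPKM in the control libraries. Mn toxicity replicate 3, with 16 reads, was far below replicates 1 and 2, with 61 and 66 reads, and the control libraries held 83 to 107 reads. The means were 0.943 ± 0.553 RPKM under Mn toxicity and 2.07 ± 0.389 RPKM in the control, and the ratio of the summed reads was 0.458 (95% interval 0.372 to 0.561, counting error only). The log2 difference was -0.91 ± 0.37 (SE), -0.78 ± 0.25 after median-of-ratios scaling and -0.54 without Mn toxicity replicate 3. It kept its sign in 23 of 23 settings and was called in 0 of them. Hence hsp20 stood apart from the other 5 unigenes in direction, while the size of its difference rested in large part on 1 library.

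LEA group 6 (TRINITY_DN33626_c0_g1), matched to a peanut protein, was by far the most abundant of the set. Its level was 114, 146 and 134 RPKM in the Mn toxicity libraries and 54.3, 56.5 and 58.1 RPKM in the control libraries. By mean RPKM it ranked 603 under Mn toxicity and 1668 in the control among the 51569 unigenes above 0. The replicates of both groups were close to each other, with a coefficient of variation of 12.6% under Mn toxicity and 3.33% in the control. The means were 131 ± 16.5 RPKM under Mn toxicity and 56.3 ± 1.87 RPKM in the control, a fold of 2.33. The log2 difference of 1.21 ± 0.18 (SE) was the most precise of the 6 as deposited. It was 1.45 ± 0.24 after median-of-ratios scaling, 1.19 when Mn toxicity replicate 3 was left out and 0.81 when every library was given the same sum of RPKM. Of 23 settings, 20 called LEA group 6 higher. The call was lost with the same sum of RPKM, without control replicate 1 (1.18) and without control replicate 3 (1.23).

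The harpin-induced LEA (TRINITY_DN10922_c0_g1) had a much lower level. It had 1.97, 2.27 and 3.10 RPKM in the Mn toxicity libraries, against 0.989, 0.625 and 1.05 RPKM in the control libraries. The groups did not overlap, and here replicate 3 was the highest Mn toxicity library. Harpins are bacterial elicitors of plant defence, and genes of this domain family were first found as induced by them in tobacco. The means were 2.44 ± 0.585 RPKM under Mn toxicity and 0.889 ± 0.231 RPKM in the control, a fold of 2.75, and the log2 difference was 1.08 ± 0.30 (SE). It was 0.93 without Mn toxicity replicate 3. It was not called as deposited, but it was called in 5 of 23 settings, among them median-of-ratios scaling (1.28 ± 0.35) and the omission of Mn toxicity replicate 2 (1.12). Over all 30913 unigenes tested, the named settings called 2515 and 4977.

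The order of the levels among the 6 unigenes also differed between the treatments. Under Mn toxicity, LEA group 6 came first, followed by HSF30-like, HSP83, the harpin-induced LEA, hsp20 and HSP70-4. In the control, LEA group 6 was followed by hsp20, HSP83, the harpin-induced LEA, HSF30-like and HSP70-4. HSF30-like and hsp20 thus changed places on either side of HSP83 and the harpin-induced LEA. Some neighbours in these orders were not apart. Under Mn toxicity, the libraries of HSF30-like overlapped with those of HSP83, those of HSP83 with those of the harpin-induced LEA, and those of hsp20 with those of HSP70-4. In the control, the harpin-induced LEA and HSF30-like overlapped, with 0.625 to 1.05 RPKM and 0.579 to 0.944 RPKM. LEA group 6 was above the other 5 unigenes in every library of both treatments, and HSP70-4 was the lowest of the 6 in every library but Mn toxicity replicate 3, where hsp20 was lower.

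The spread among the Mn toxicity libraries responded to scaling in opposite ways for the 4 heat shock and the LEA unigenes. Median-of-ratios scaling lowered the coefficient of variation of HSP83 in the Mn toxicity group to 12.4%, against 42.5% as deposited. In contrast, it raised that of LEA group 6 to 38.3%, against 12.6% as deposited, and that of the harpin-induced LEA to 60.7%, against 23.9%. After scaling, LEA group 6 had 117, 114 and 215 RPKM in the Mn toxicity libraries and 49.2 to 53.4 RPKM in the control libraries. The harpin-induced LEA had 2.03, 1.77 and 4.97 RPKM under Mn toxicity and 0.590 to 0.952 RPKM in the control. Thus both LEA unigenes were highest in Mn toxicity replicate 3 once scaled, as was HSP70-4 with 0.699, 0.818 and 1.05 RPKM, whereas HSF30-like and hsp20 were lowest there with or without scaling. Of all unigenes tested, 42.0% were highest and 38.3% lowest in this library within their group after scaling. The 4 chloroplast transcripts were highest there with the RPKM as deposited and after scaling.

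**Figure D2:**
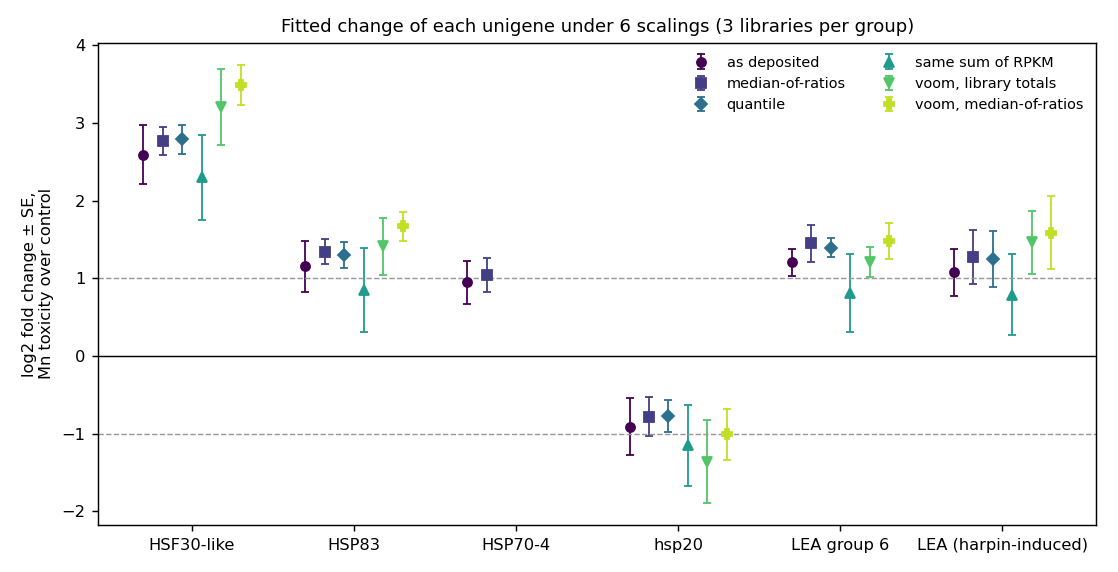
Log2 fold change ± SE of each unigene (Mn toxicity over control, vertical axis) under 6 scalings or tests, 3 libraries per group. Dashed lines mark the limit of 1 in size. HSF30-like lies above 2 and hsp20 below 0 under each of them, HSP83 and both LEA unigenes lie below 1 only with the same sum of RPKM, and HSP70-4 is shown for the fits without a minimum RPKM alone.

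Trinity groups contigs that share sequence into read clusters, and other unigenes of the same cluster were found by their IDs alone. The heat shock unigenes had 36 such neighbours, of which 29 were above 0 and 16 were tested. Of these 16, limma called 2 higher and the others not (5.78% of all unigenes were called). It called 3 higher after median-of-ratios scaling, where 8.14% of all unigenes were called, 4.37% higher. The LEA unigenes had 0 neighbours. RSEM, named in the study's methods, divides reads that fit several unigenes by expectation maximization. The deposited RPKM corresponded to whole reads, so how reads were divided within a cluster is not known here. Whether levels within a cluster depend on each other was not tested.

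HSF30-like had 13 neighbours, and the study's tables match 2 of them to heat shock factors. A class A2 factor (TRINITY_DN44117_c1_g6) had 7.22, 7.87 and 3.77 RPKM under Mn toxicity, against 3.42, 3.02 and 2.92 RPKM in the control. Its log2 difference of 0.85 was not called (limma, adjusted p = 0.131), and after median-of-ratios scaling it was 1.06 and called (limma, adjusted p = 0.00275). TRINITY_DN44117_c1_g3, a hypothetical protein by its protein match and a class B2 factor by its nucleotide match, had 6.09, 6.52 and 2.75 RPKM under Mn toxicity and 2.74, 2.43 and 2.68 RPKM in the control (log2 difference 0.77, limma, adjusted p = 0.195). After scaling its difference was 0.98 (limma, adjusted p = 0.00577), under the limit of 1. Without Mn toxicity replicate 3 both factors were called (1.15 for the class A2 factor and 1.13 for TRINITY_DN44117_c1_g3), as were 2848 of all 30913 unigenes tested. Class B factors lack the activating domain of class A. The undescribed TRINITY_DN44117_c2_g1, the most abundant neighbour, had 7.98, 9.51 and 7.26 RPKM under Mn toxicity and 7.87, 7.33 and 6.52 RPKM in the control, and these groups overlapped (limma, log2 difference 0.17, adjusted p = 0.691).

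Within this cluster, the order of the HSFs differed between the treatments. The level of the class A2 factor was 0.882, 0.694 and 0.963 times that of HSF30-like in Mn toxicity replicates 1, 2 and 3, but 4.14, 5.22 and 3.10 times it in control replicates 1, 2 and 3. HSF30-like took 17.6, 20.8 and 14.1% of the reads of the cluster under Mn toxicity and 2.5, 1.90 and 3.02% in the control. These ratios need no scaling between libraries, and their groups were far apart.

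HSP83 had 15 neighbours, 8 of them above 0, and made up a small part of its cluster. Undescribed TRINITY_DN42162_c3_g3 had 207, 297 and 160 RPKM under Mn toxicity, against 163, 163 and 165 RPKM in the control, and the groups overlapped (limma, log2 difference 0.39, adjusted p = 0.318). The same held for TRINITY_DN42162_c3_g4 with 143, 200 and 93.6 RPKM under Mn toxicity and 106, 103 and 101 RPKM in the control (log2 difference 0.42, limma, adjusted p = 0.346). HSP83 itself held 0.831, 0.99 and 0.856% of the reads of the cluster under Mn toxicity and 0.387, 0.488 and 0.45% in the control. Its share was thus higher in each Mn toxicity library. After median-of-ratios scaling the groups of both abundant unigenes were apart, with 214 to 257 RPKM under Mn toxicity and 148 to 154 RPKM in the control for TRINITY_DN42162_c3_g3 and with 147 to 156 RPKM under Mn toxicity and 91.6 to 97.7 RPKM in the control for TRINITY_DN42162_c3_g4. Their differences were then 0.64 (limma, adjusted p = 0.011) and 0.67 (limma, adjusted p = 0.00479), under the limit of 1 and therefore not called.

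The neighbours of HSP70-4 were of another kind. TRINITY_DN47176_c0_g2 and TRINITY_DN47176_c0_g3 are described as amino acid transporters. The name of the c0_g2 unigene is a match to a lysine histidine transporter-like protein, a family that carries amino acids across the plasma membrane. TRINITY_DN47176_c0_g2 had 6.42, 8.48 and 5.44 RPKM under Mn toxicity and 0.559, 0.359 and 0.276 RPKM in the control (log2 difference 3.01, limma, adjusted p = 0.00075). TRINITY_DN47176_c0_g3 had 8.32, 10.4 and 7.26 RPKM under Mn toxicity and 0.397, 0.834 and 0.388 RPKM in the control (log2 difference 3.15, limma, adjusted p = 0.000634). Both were called higher, and both were more abundant than HSP70-4 in every library. HSP70-4 held 3.92, 4.68 and 4.39% of the reads of its cluster under Mn toxicity and 16.8, 7.14 and 16.7% in the control, so its share was lower in each Mn toxicity library. Whether reads of the transporters were counted on HSP70-4 was not tested.

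The hsp20 unigene had 4 neighbours, none of them described. TRINITY_DN45346_c0_g1 had 11, 19.3 and 4.84 RPKM under Mn toxicity and 10.6, 9.66 and 10.3 RPKM in the control, and its log2 difference of -0.00 (limma, adjusted p = 0.999) was 0.23 after median-of-ratios scaling. TRINITY_DN45346_c1_g1 had 2.80, 2.95 and 1.46 RPKM under Mn toxicity and 1.84, 2.22 and 2.06 RPKM in the control (limma, log2 difference 0.15, adjusted p = 0.802). The groups of both overlapped as deposited. After scaling those of TRINITY_DN45346_c1_g1 were apart, with 2.31 to 2.89 RPKM under Mn toxicity and 1.66 to 2.10 RPKM in the control (0.34, limma, adjusted p = 0.153). The other neighbour tested, TRINITY_DN45346_c2_g2, had 36, 30 and 15 reads under Mn toxicity and 21, 22 and 31 reads in the control. Its groups overlapped (limma, log2 difference -0.02, adjusted p = 0.982). TRINITY_DN45346_c2_g1, chosen after its values were seen, was too weak to be tested. It had 4, 8 and 0 reads under Mn toxicity and 8, 9 and 7 reads in the control. Its groups all but touched, with 0.3724 RPKM in Mn toxicity replicate 2 and 0.3728 RPKM in control replicate 1. The hsp20 unigene took 6.05, 4.48 and 3.58% of the reads of its cluster under Mn toxicity and 11.8, 9.49 and 12.7% in the control.

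**Figure D3:**
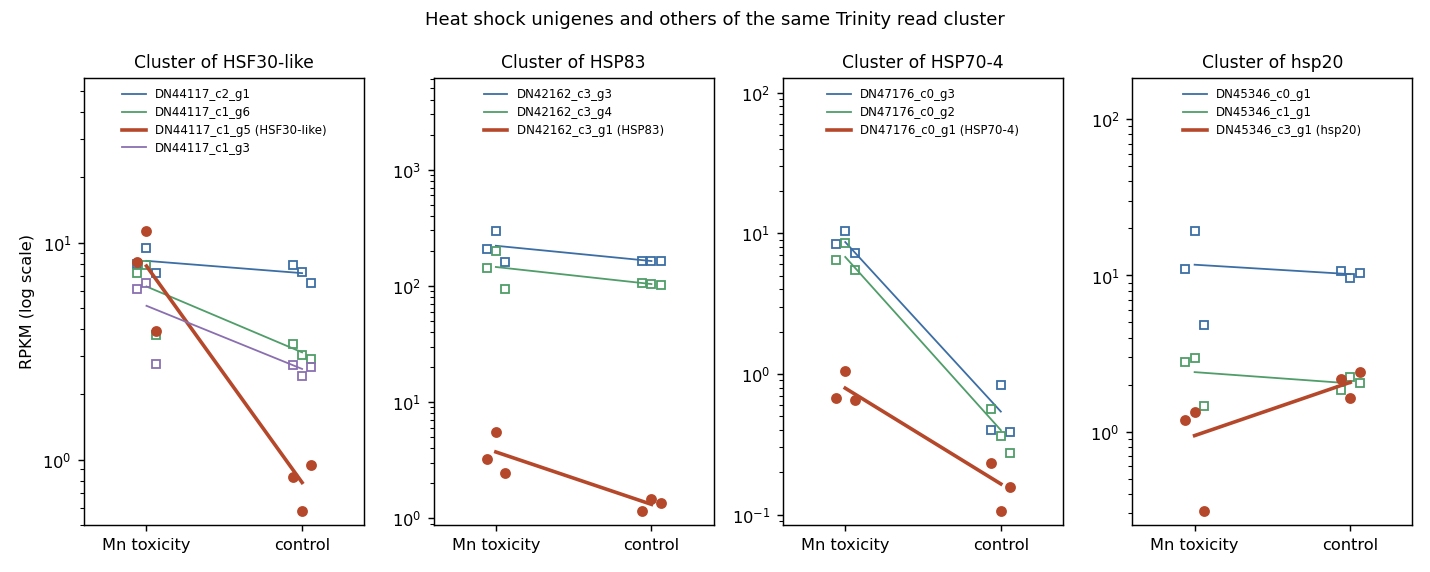
RPKM on a log axis of 4 heat shock unigenes (filled red circles, thick line) and of the named unigenes of the same Trinity read cluster (open squares, thin lines), 1 panel per cluster, with 3 Mn toxicity libraries left of 3 control libraries and lines joining group means. The line of HSF30-like is steeper than those of its neighbours, that of HSP70-4 runs below those of the more abundant transporters, and that of hsp20 runs upward to the control, whereas those of its drawn neighbours are near flat.

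The 6 unigenes were also set among the other heat shock, chaperone and LEA unigenes that carry a description in the study's DEG tables. These 44 unigenes were chosen by the study on these libraries, so the counts below are not independent evidence of a direction. Of them, 40 were tested, 18 were called higher, 2 lower and 20 were not called, beside 2.09% higher and 3.69% lower among all unigenes tested. After median-of-ratios scaling 29 were called higher and 1 lower, beside 4.37% higher and 3.77% lower. With one sum of RPKM in every library 5 were called, beside 1179 of all 30913 unigenes tested. Without Mn toxicity replicate 3 there were 33, beside 2848 of all unigenes tested. Their median log2 difference was 1.02, beside -0.20 for all unigenes tested. The LEA and desiccation unigenes had a median of 1.69 (8 of 11 called higher, 1 lower) and the heat shock and chaperone unigenes one of 0.89 (10 of 29 called higher, 1 lower).

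Among regulators, HSF30-like was the only one of 6 HSFs called higher at the deposited scale, whereas median-of-ratios scaling called 4. Of all unigenes tested, 2.09% and 4.37% were called higher at these scales. The other 5 had log2 differences of 0.77 to 0.92. Next to HSF30-like came a class B3 factor (TRINITY_DN46520_c1_g2) with 1.20, 0.790 and 1.68 RPKM under Mn toxicity and 0.412, 0.486 and 0.279 RPKM in the control. Its log2 difference was 0.92 ± 0.32 (SE). The 6 HSFs all had higher levels in each Mn toxicity library than in any control library, as did 9.41% of all unigenes tested. They were listed from the study's DEG tables of this contrast, so such a separation was likely beforehand. Of the 6, HSF30-like differed by far the most.

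Of the 3 HSP90 unigenes tested, limma called 0 as deposited, as did voom on recovered reads. Median-of-ratios scaling called 2 of them higher, beside 4.37% of all unigenes tested, HSP83 being 1. The other was an endoplasmin-like unigene (TRINITY_DN42929_c2_g1), endoplasmin being the HSP90 of the endoplasmic reticulum. It had 98.8, 128 and 65.9 RPKM under Mn toxicity and 51.4, 48.8 and 52.2 RPKM in the control, with a log2 difference of 0.89 ± 0.24 (SE). HSP83 thus had the largest difference of the 3 HSP90 unigenes tested, at a level below those of the other two.

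In the HSP70 class, 3 of the 4 unigenes tested were called higher, beside 2.09% of all unigenes tested. The unigenes of this and the other classes were listed from the study's DEG tables of this contrast, so high shares were likely beforehand. A heat shock cognate 70 kDa protein (TRINITY_DN46241_c1_g1) had 45.3, 55.6 and 42.0 RPKM under Mn toxicity and 18.1, 18.0 and 19.0 RPKM in the control (log2 difference 1.34 ± 0.20). A luminal-binding protein (TRINITY_DN45911_c0_g1), the HSP70 of the endoplasmic reticulum, had 1.51, 1.48 and 0.913 RPKM under Mn toxicity and 0.272, 0.341 and 0.293 RPKM in the control (log2 difference 1.15 ± 0.30). HSP70-4 was the weakest of this class, and its untested difference had the same sign.

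Of 7 small HSPs, 4 were called higher, beside 2.09% of all unigenes tested. The hsp20 unigene was the only one of the 7 with a lower level under Mn toxicity. A class I small HSP (TRINITY_DN927_c0_g1) had 11.6, 11.1 and 9.39 RPKM under Mn toxicity and 3.17, 3.59 and 3.38 RPKM in the control (log2 difference 1.52 ± 0.24). A unigene matched to a peanut heat shock protein (TRINITY_DN41901_c0_g1) had 3.27, 4.80 and 4.16 RPKM under Mn toxicity and 1.27, 1.81 and 1.01 RPKM in the control (log2 difference 1.31 ± 0.30). Class I small HSPs act in the cytosol. The difference of hsp20 was therefore opposite in sign to those of the other 6 small HSPs, which ranged from 0.76 to 1.52.

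The partners of these chaperones were mixed, beside 2.09% of all unigenes tested called higher and 3.69% called lower. DnaJ proteins deliver clients to HSP70, and 1 of 3 tested was called higher (TRINITY_DN43381_c2_g1, log2 difference 1.21 ± 0.30), the next being TRINITY_DN32757_c0_g1 (0.76 ± 0.28). Chaperonins form the folding chamber of plastids and mitochondria, and 1 of 4 was called higher, a 10 kDa chaperonin (TRINITY_DN29780_c0_g1, 1.70 ± 0.27). A second 10 kDa chaperonin (TRINITY_DN44267_c4_g5, 1.20 ± 0.44) was called after median-of-ratios scaling (1.42) and not as deposited, and the plastid subunit that assembles Rubisco (TRINITY_DN47011_c1_g5, -0.93 ± 0.34) was called at neither scale. Among 5 co-chaperones, an FKBP62-like partner of HSP90 (TRINITY_DN40669_c0_g1, 1.17 ± 0.27) was called higher, and an FKBP65-like isomerase (TRINITY_DN45910_c3_g3, -1.76 ± 0.20) was called lower. The FKBP62-like call was lost with a pseudocount of 1 (0.99), without a minimum RPKM, with one sum of RPKM (0.86) and under voom on recovered reads. It was also lost without Mn toxicity replicate 1 and without each control library in turn. With median-of-ratios scaling it was lost without control replicate 3. A BAG domain unigene (TRINITY_DN33354_c0_g1, 1.18 ± 0.33) was called after median-of-ratios scaling (1.29) and not as deposited. FKBP65-like had 15.3, 17.0 and 12.4 RPKM under Mn toxicity and 48.1, 54.4 and 51.2 RPKM in the control, the lowest log2 difference of the list.

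Of 6 LEA unigenes, 3 were called higher and 1 lower, beside 2.09% higher and 3.69% lower among all unigenes tested. A group 3 LEA (TRINITY_DN29137_c0_g2) had 6.13, 6.92 and 7.40 RPKM under Mn toxicity and 1.66, 1.99 and 1.65 RPKM in the control (log2 difference 1.69 ± 0.26). A dehydrin (TRINITY_DN44524_c0_g2), a LEA protein of drying and cold tissue, had 18.1, 20.2 and 11.7 RPKM under Mn toxicity and 6.12, 4.77 and 4.90 RPKM in the control (log2 difference 1.55 ± 0.27). The lower one (TRINITY_DN39734_c0_g1) had 6.24, 4.31 and 3.89 RPKM under Mn toxicity and 13.0, 10.7 and 11.5 RPKM in the control, and its log2 difference of -1.23 ± 0.26 was -0.99 and no longer called after median-of-ratios scaling. LEA group 6 had a smaller difference than the group 3 LEA and the dehydrin, at a level several times theirs.

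The harpin-induced LEA could be set beside the LEA_2 or YLS9 unigenes, YLS9 being a harpin-induced family member found in yellowing leaves of Arabidopsis. Of 5 tested, 4 were called higher, beside 2.09% of all unigenes tested. A YLS9-like unigene (TRINITY_DN47445_c0_g1) had 7.18, 12.9 and 9.74 RPKM under Mn toxicity and 1.90, 1.49 and 1.25 RPKM in the control (log2 difference 2.33 ± 0.30), and another (TRINITY_DN39228_c0_g1) had 16.0, 20.3 and 18.4 RPKM under Mn toxicity and 3.04, 4.02 and 4.10 RPKM in the control (2.15 ± 0.24). Of other desiccation unigenes, an abscisic stress-ripening protein (TRINITY_DN47579_c0_g3) had 12, 11.5 and 13.1 RPKM under Mn toxicity and 1.70, 2.25 and 2.08 RPKM in the control (2.34 ± 0.25). A PCC13-62-like unigene (TRINITY_DN43804_c1_g2) had 6.5, 0.565 and 1.36 RPKM under Mn toxicity and was listed at 0 in the 3 control libraries. The difference of the harpin-induced LEA, 1.08, was smaller than those of the 4 unigenes called in this class.

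**Figure D4:**
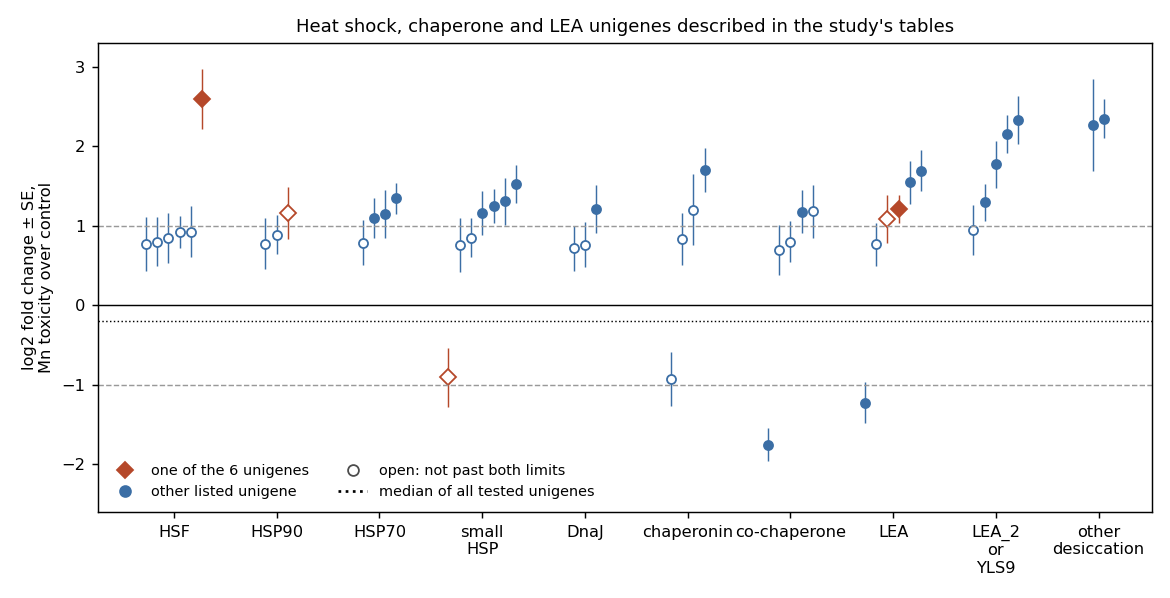
Log2 fold change ± SE (Mn toxicity over control, vertical axis) of the 45 heat shock, chaperone and LEA unigenes tested, grouped by class. Red diamonds are unigenes of the set of 6 and blue circles the other listed unigenes, filled symbols passed both limits, dashed lines mark 1 in size and the dotted line the median of all unigenes tested (-0.20). HSF30-like has the highest value of the list and hsp20 is the only small HSP below 0.

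The unigenes whose pattern over the 6 libraries was most like those above were looked for among all unigenes tested, by Pearson's r of log2(RPKM + 0.5). This r is dominated by the difference between the groups and is a description. The closest to HSF30-like was TRINITY_DN45198_c0_g2 (r = 0.999), which carries no description, and 131 unigenes had an r above 0.99. For HSP83 it was TRINITY_DN45567_c0_g2 (r = 0.998), for HSP70-4 TRINITY_DN44813_c1_g2 (r = 0.999) and for hsp20 TRINITY_DN44059_c2_g4 (r = 0.999), all undescribed. An r above 0.99 was reached by 35 unigenes for HSP83, 33 for HSP70-4 and 61 for hsp20. LEA group 6 was closest to a vestitone reductase-like unigene (TRINITY_DN45162_c2_g1, r = 0.998) with 17.3, 23.8 and 20.7 RPKM under Mn toxicity and 8.53, 9.22 and 9.32 RPKM in the control. That unigene was 1 of 67 with an r above 0.99 to LEA group 6, 32 of them described. Vestitone reductase is an enzyme of isoflavonoid phytoalexin synthesis in legumes. The harpin-induced LEA had 0 unigenes above 0.99 and was closest to TRINITY_DN42025_c0_g1 (r = 0.99).

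Descriptions came only from the study's tables of DEGs of this contrast, so described unigenes were chosen for a difference between the groups. Among them, the closest to HSF30-like was a hypothetical protein (TRINITY_DN39805_c0_g1, r = 0.998) and the closest to HSP70-4 an uncharacterized one (TRINITY_DN47051_c0_g5, r = 0.998). HSP83 was closest to a receptor-like kinase (TRINITY_DN47455_c1_g1, r = 0.994) with 4.41, 6.81 and 3.77 RPKM under Mn toxicity and 2.58, 2.91 and 2.82 RPKM in the control. The closest to hsp20 was an NB-ARC disease resistance unigene (TRINITY_DN48136_c6_g1, r = 0.996) with 2.15, 2.09 and 0.526 RPKM under Mn toxicity and 4.34, 3.02 and 4.69 RPKM in the control. The harpin-induced LEA was closest to a lectin receptor kinase (TRINITY_DN43546_c2_g1, r = 0.982) with 3.68, 3.71 and 5.09 RPKM under Mn toxicity and 1.75, 1.35 and 1.55 RPKM in the control. Among described unigenes, an r above 0.99 was reached by 70 for HSF30-like, 12 for HSP83, 14 for HSP70-4, 5 for hsp20 and 0 for the harpin-induced LEA. NB-ARC proteins and lectin receptor kinases are known as immune receptors of plants.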

How the data were processed

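Per the study's methods, unigenes were assembled from the clean reads by Trinity, and the authors obtained their abundance with Bowtie2 2.2.3 and RSEM, without a genome. The deposited values are RPKM, computed by the authors, in 1 table per library with no scaling between libraries stated. The study's DESeq2 test was replaced by limma, since the tables hold RPKM and not counts.

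The moderated test of limma 3.58.1 (R 4.3.3) was run on log2(RPKM + 0.5), two-sided and with an intensity trend, over 30913 unigenes with a mean of at least 0.5 RPKM. Calls needed a Benjamini-Hochberg adjusted p under 0.05 and an absolute log2 fold change of 1 or more. Whole reads were recovered from the RPKM steps with Python 3.11.15, and each of the 43500 unigenes above 0 in at least 4 libraries gave whole reads within 0.01. Read ratios carry exact 95% intervals for counting error only. The scripts were tested on simulated data. With 3 libraries against 3, an exact permutation test cannot go below p = 0.10.

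The members and lists were chosen with earlier results of these data known. Unigenes are named by the protein, nucleotide or domain match in the study's tables. In each class of the list, the 2 largest positive and the 1 largest negative log2 difference are named, in each cluster the described unigenes and the 2 most abundant tested ones, and for each member the closest unigene by Pearson's r. Alternatives were other pseudocounts, minimum values and scalings, limma voom on recovered reads, a replicate block and the omission of each library. The differences that the study's tables hold were not used. No sequences of these unigenes were used here.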

Additional observations from a re-analysis of the deposited data

How the results depend on the processing

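The counts of calls over all unigenes, the 6 described unigenes, the other listed unigenes and the cluster neighbours were 1787, 2, 20 and 2 with the RPKM as deposited. Of the 6, 5 passed the minimum RPKM and were counted. Median-of-ratios scaling called 4 of these 5 (2515 of all unigenes), as did quantile normalization (2567), and HSP70-4 was called with that scaling only when no minimum was set. Setting every library to one sum of RPKM gave 1179, 1 and 5 for all, the 6 and the other listed unigenes, and limma voom with median-of-ratios scaling called 3086, 4, 38 and 4. Without a minimum RPKM, 13 of the other listed unigenes were called. Leaving out 1 library gave 289 to 4977 calls over all unigenes, 1 to 3 of the 6, 4 to 33 of the other listed unigenes and 2 to 6 neighbours, with the fewest over all without control replicate 3 and the most without Mn toxicity replicate 2. With median-of-ratios scaling as well, these ranges were 1693 to 3447, 3 to 4, 25 to 33 and 2 to 6, and the fit without Mn toxicity replicate 3 called 2894 of all and 31 of the other listed unigenes. The cause of these shifts was not tested.

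With the replicate block, 2693 of all unigenes, 2 of the 6, 21 of the other listed unigenes and 2 neighbours were called. Libraries of the same number correlated by 0.08, -0.15 and -0.08 in their deviations from the group means, so the numbers were not taken to pair the samples, and Mn toxicity replicate 3 correlated best with control replicate 2 (0.23).

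No log2 difference of the 6 unigenes changed sign under any alternative run, including those for HSP70-4 that were chosen after seeing the data. Of 53 unigenes followed, 4 changed sign in some setting. With one sum of RPKM, TRINITY_DN42162_c3_g3 was at -0.011, TRINITY_DN44117_c2_g1 at -0.20 and TRINITY_DN45346_c1_g1 at -0.15. TRINITY_DN45346_c0_g1, at -0.00 as deposited, was at 0.0084 with a pseudocount of 1, 0.23 with median-of-ratios scaling, 0.21 with quantile normalization and 0.29 with limma voom and median-of-ratios scaling. Leaving out 1 library brought it to between -0.44 and 0.50, its value without Mn toxicity replicate 3. With median-of-ratios scaling as well, TRINITY_DN45346_c0_g1 was between 0.016 and 0.47, with 0.25 and 0.22 without control replicates 1 and 3.

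Depth limits HSP70-4 (8 to 17 reads per control library) and hsp20 (16 reads in Mn toxicity replicate 3) most.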

Other observations

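One unigene of the HSP83 cluster had a match outside plants. TRINITY_DN42162_c2_g1 is described as an Hsp90 of a chytrid fungus by its protein match. It had 0.0335, 0.140 and 0.0671 RPKM in Mn toxicity replicates 1, 2 and 3, from 1, 4 and 2 reads, and 0.280, 0.137 and 1.75 RPKM in control replicates 1, 2 and 3, from 8, 4 and 43 reads. Most of its reads thus came from control replicate 3. The other markers of foreign organisms, a calreticulin matched to a spider mite and a cyclophilin matched to fungi, were weak as well. Summed over these 3 unigenes, the level was 0.944, 0.756 and 1.76 RPKM under Mn toxicity and 1.63, 0.663 and 3.99 RPKM in the control. Their part in the values of HSP83 was not tested.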
